A study of Homo sapiens with 7 samples.

Results

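The genes described here encode AP-1 and ATF transcription factors: JUN, JUNB, JUND, FOS, FOSB, FOSL1, FOSL2, ATF2, ATF3 and BATF3. They are 10 of the 19970 protein-coding genes annotated on chromosomes 1 to 22 and X, and are defined by name, with no measured value in the definition. Rb on their chromatin was mapped by CUT&RUN, in which an antibody directs a nuclease to a protein in permeabilised cells and the DNA fragments it releases are sequenced. A promoter peak overlapped the interval from 2000 bp upstream to 500 bp downstream of any annotated transcription start site (TSS) of the gene, and a distal peak lay in no protein-coding promoter, with a member TSS as the nearest one and within 50 kb. The 7 libraries were made from cells of the established breast cancer line ZR-75-1, which expresses the oestrogen receptor, after 4 days with palbociclib, an inhibitor of the kinases CDK4 and CDK6, or with its solvent DMSO.

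The groups were parental cells with DMSO (2 libraries with an Rb antibody), parental cells with 500 nM palbociclib (2 libraries with the Rb antibody), RB1-knockout (RB1 KO) cells with DMSO or with 500 nM palbociclib (1 library each with the Rb antibody), and parental cells with 500 nM palbociclib and an IgG2a antibody that has no target in the cell (1 library). RB1 encodes Rb. The study's methods describe knockout cells as clones grown from single sorted CRISPR–Cas9-edited cells, so the RB1 KO libraries may stand for a single clone. The parental replicates are described there as separate biological samples of a single experiment.

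AP-1 is a family of dimers in which a JUN protein pairs through a leucine zipper with another JUN protein or with a FOS protein, while ATF proteins pair with each other or with JUN proteins. FOS-JUN dimers read the letters TGACTCA, and ATF dimers read the cyclic AMP response element (CRE), TGACGTCA. Several of the genes are immediate early genes, switched on within minutes of a growth or stress signal, and in breast cancer cells AP-1 is known as a partner through which the oestrogen receptor reaches DNA. Rb binds promoters through E2F factors and other partners when CDK4 and CDK6 leave it unphosphorylated.

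The sequences below lie under Rb peak summits of parental cells with palbociclib and are shown because the members differed in what lay there. Each is 200 bp around the summit in palbociclib library 2 (FOSB, FOSL2) or the mean summit of both palbociclib libraries (the others), moved upstream at ATF2 to stay clear of its transcripts, and runs 5′ to 3′ on the strand of the gene, with hg38 coordinates, and none extends into a transcript of its member. Capitals mark CCAAT, the letters bound by NFY, and GGGCGG or its reverse complement CCGCCC, bound by SP and KLF factors, in ATF2 and JUNB. In JUN they mark SP/KLF letters and CCGGAAGT, read by ETS factors. In FOSB they mark only the CArG box, the site of the serum response factor SRF. In FOSL2 they mark SP/KLF letters. In the peak upstream of FOS they mark TGACG or its reverse complement CGTCA, the core of a CRE, and ATTGG, the reverse complement of CCAAT.
ATF2 promoter, chr2:175168383-175168582, minus strand: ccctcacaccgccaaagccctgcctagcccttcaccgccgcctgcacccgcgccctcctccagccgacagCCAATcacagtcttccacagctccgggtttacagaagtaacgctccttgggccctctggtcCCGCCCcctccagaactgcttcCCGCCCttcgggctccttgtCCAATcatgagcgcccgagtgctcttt
JUNB promoter, chr19:12789980-12790179, plus strand: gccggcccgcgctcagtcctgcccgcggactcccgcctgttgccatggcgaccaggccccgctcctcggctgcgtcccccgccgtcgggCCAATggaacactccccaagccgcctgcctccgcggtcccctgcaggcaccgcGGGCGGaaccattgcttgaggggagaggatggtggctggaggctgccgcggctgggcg
JUN promoter, chr1:58784475-58784674, minus strand: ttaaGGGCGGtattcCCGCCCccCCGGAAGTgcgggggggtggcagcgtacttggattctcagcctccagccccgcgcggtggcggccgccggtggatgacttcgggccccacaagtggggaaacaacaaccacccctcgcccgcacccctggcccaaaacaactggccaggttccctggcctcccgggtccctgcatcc
FOSB promoter, chr19:45467703-45467902, plus strand: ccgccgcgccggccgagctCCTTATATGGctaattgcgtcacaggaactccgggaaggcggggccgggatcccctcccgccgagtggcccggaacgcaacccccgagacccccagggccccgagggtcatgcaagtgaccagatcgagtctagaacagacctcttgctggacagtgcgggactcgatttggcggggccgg
FOSL2 promoter, chr2:28391995-28392194, plus strand: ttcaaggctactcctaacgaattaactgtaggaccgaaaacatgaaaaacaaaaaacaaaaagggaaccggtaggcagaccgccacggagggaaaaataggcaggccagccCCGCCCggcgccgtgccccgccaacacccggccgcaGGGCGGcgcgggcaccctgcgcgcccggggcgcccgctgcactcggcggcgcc
FOS upstream peak, chr14:75259125-75259324, plus strand: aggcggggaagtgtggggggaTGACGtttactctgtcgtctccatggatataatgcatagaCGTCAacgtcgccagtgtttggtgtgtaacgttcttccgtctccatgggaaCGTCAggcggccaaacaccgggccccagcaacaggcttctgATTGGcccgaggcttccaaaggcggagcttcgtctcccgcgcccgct

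The ATF2 window held the summits of all 4 parental libraries, the JUNB, JUN and FOS windows held the summits of both palbociclib libraries, and the FOSB and FOSL2 windows held the summit of palbociclib library 2. Between 59% (the FOS window) and 75% (the JUNB window) of the bases were G or C.

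The peak lists differed greatly in length. There were 996 and 816 peaks with DMSO, 8399 and 8256 with palbociclib, 65 and 51 in RB1 KO cells with DMSO and palbociclib, and 2648 with IgG2a. On chromosomes 1 to 22 and X, RB1 KO cells had 4 and 5 peaks. Fold enrichment is the ratio the authors' peak caller gives at the summit of a peak, fragment pileup plus 1 over local background plus 1, and the whole-number pileup was recovered from it together with the p-value. Total read numbers are not part of the lists, and the lowest background of each list, which scales with sequenced depth, was between 0.465 and 0.571 fragments in the 4 parental Rb lists and 0.655 and 0.446 in the RB1 KO lists. A list gives no value where no peak was called, so absence of a peak sets no level.

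With palbociclib, 7 of the 10 members had an Rb promoter peak in both libraries (ATF2, ATF3, FOSL1, FOSL2, JUN, JUNB and JUND), beside 34.9% of all protein-coding genes. FOS and FOSB had one in palbociclib library 2 only, 2 of 10 members beside 8.82% of all genes. With DMSO, ATF2 alone was called in both libraries, 1 of 10 beside 2.9%, and no other member was called in either. So 6 of 10 members were called in both palbociclib libraries and in neither DMSO library, beside 28.4% of all genes. The lists being so unequal, each parental list was also held to its best 816 peaks, the length of the shortest, and ATF2 was then the 1 member of 10 called in both palbociclib libraries, beside 3.82% of all genes. No member had a promoter peak in either RB1 KO library (0.01% of all genes did) or in the IgG2a library (1.95% did). BATF3 had no promoter or distal peak in any of the 7 lists.

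The 7 members called in both palbociclib libraries spread over nearly the whole range of promoter signal. By mean fold enrichment of the best promoter peak, ATF2 ranked 44 of the 6974 genes so called, JUNB 707, FOSL2 3071, ATF3 3981, JUN 5007, FOSL1 6219 and JUND 6431. Their median fold enrichment was 7.57, beside 8.36 over the 6974 genes. Their median pileup was 14 fragments beside 20.5, and their median peak width 664 bp beside 552 bp. The 664 bp is the FOSL2 mean of 239 and 1089 bp, from peaks at different sites, so the width contrast is uncertain. Neighbours in the order by fold enrichment did not all stand apart. The library values of FOSL2 and ATF3 overlapped, as did those of FOSL1 and JUND, whereas ATF2, JUNB and JUN each had both values apart from those of the genes next to them.

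**Figure D1:**
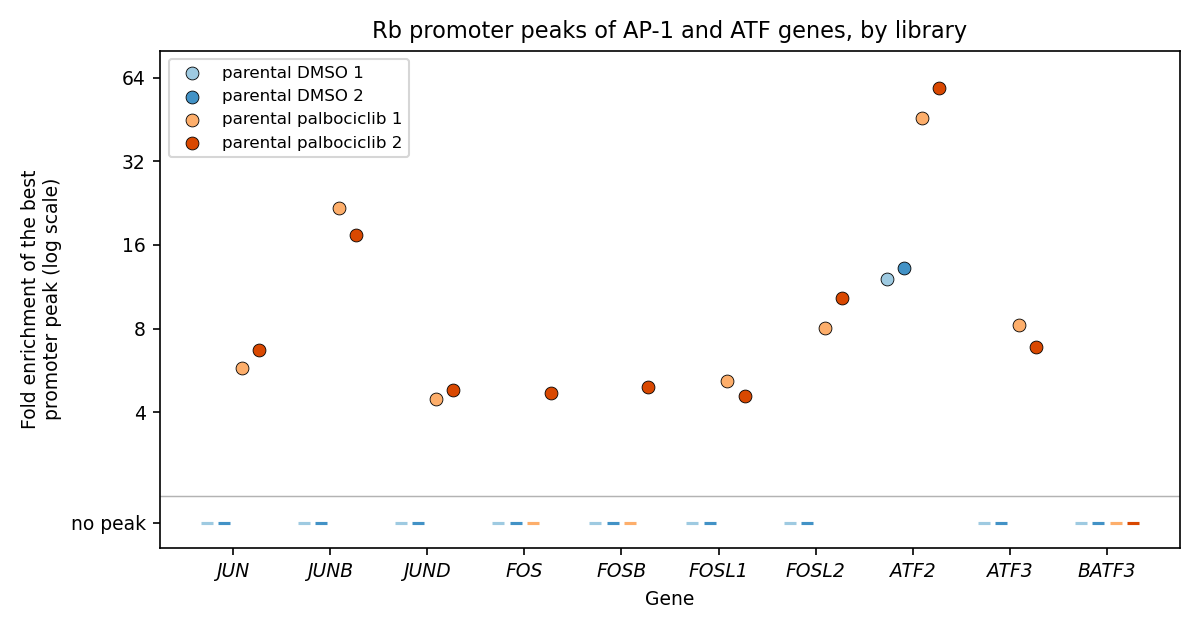
Fold enrichment of the best promoter peak (log scale) of each member in the 4 parental Rb libraries, 1 point per library, with dashes where no peak was called. ATF2 alone has points in all 4 libraries, JUNB stands next at 21.8 and 17.4 with palbociclib, and BATF3 has dashes throughout.

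**Figure D2:**
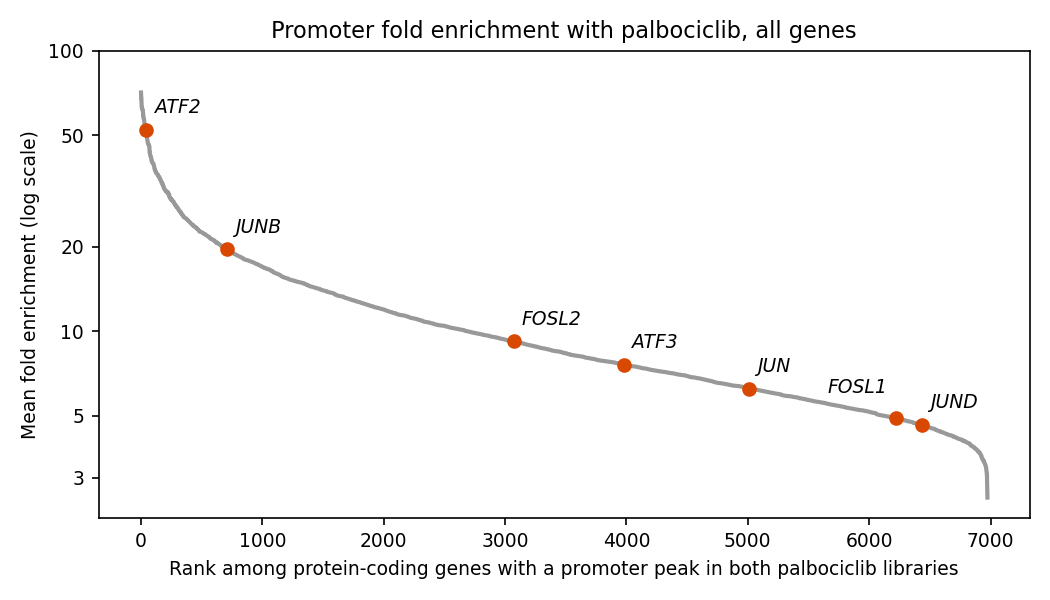
Mean fold enrichment of the best promoter peak over both palbociclib libraries (log scale) against rank, for the 6974 protein-coding genes called in both (grey) with the 7 members marked. ATF2 sits at the steep top end at 52.2, JUNB at 19.6, and FOSL1 and JUND near the foot of the curve at 4.89 and 4.63.

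By the best promoter peak of each gene, summits of the members lay further from a TSS than was usual among bound promoters. The median distance from the summit of the best promoter peak to the nearest TSS of the gene was 570 bp and 319 bp in palbociclib libraries 1 and 2, beside 102.5 bp and 101 bp over the 6974 genes. The 7 genes are few, and the difference was not tested. The library 1 median depends on which peak counts as best. There the ATF3 peak at 1722 bp was chosen over one at 38 bp, both at 8.27. The FOSL2 peak at 685 bp (8.05) was chosen over a broader one at 176 bp (7.62). With the other peak taken at both genes, the library 1 median would be the FOSL2 value of 176 bp, beside 102.5 bp. ATF2 and FOSL1 had summits within 74 bp of a TSS in both libraries, and JUNB had its summit over 1 kb upstream in both.

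**Figure D3:**
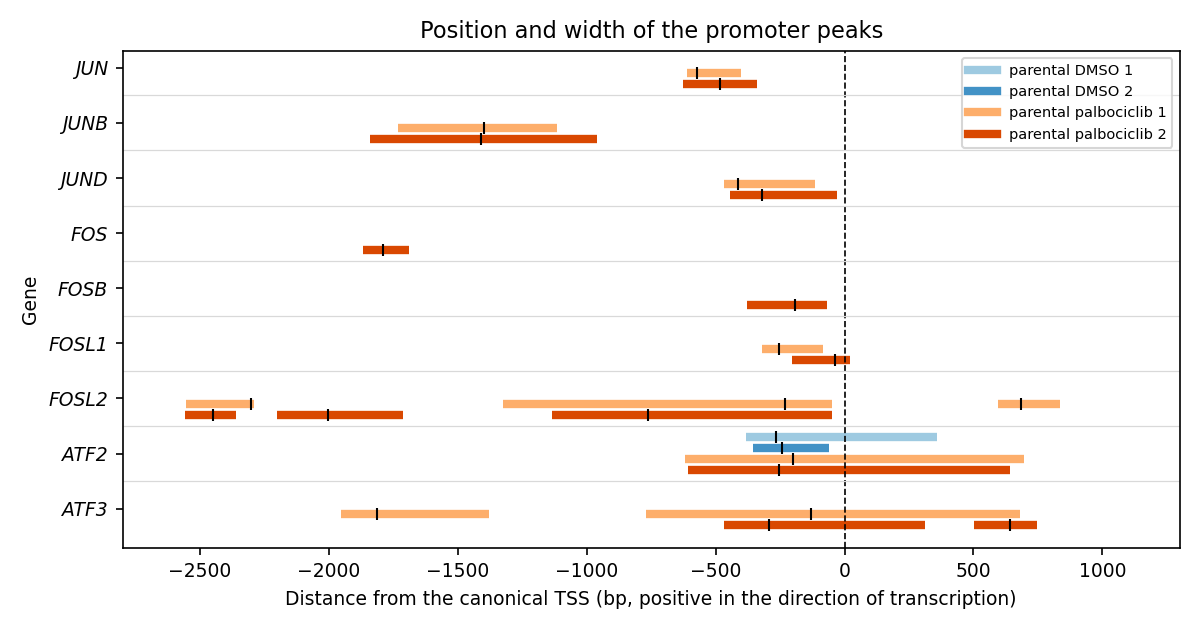
Promoter peaks of the 9 members that had any, drawn as bars by library at their distance in bp from the canonical TSS (dashed line, positive in the direction of transcription), with a black tick at each summit. The ATF2 peaks span the TSS in 3 of 4 libraries, the JUNB peaks lie wholly upstream with summits at -1400 and -1412 bp, and FOSL2 and ATF3 carry more than 1 peak in both palbociclib libraries.

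ATF2 encodes a CRE-binding factor that is activated by phosphorylation through the stress kinases JNK and p38, and it carried by far the strongest Rb peak of the set. The gene (ENSG00000115966.18) lies on the minus strand of chromosome 2, from 175072250 to 175168382. Fold enrichment at the ATF2 promoter was 12.1 and 13.2 in the DMSO libraries and 45.7 and 58.7 in the palbociclib libraries, so the groups did not overlap. The pileup at the summit was 18 and 19 fragments in the DMSO libraries, against 89 and 90 after palbociclib. The peaks covered chr2:175167844-175168587 and chr2:175168264-175168557 with DMSO (744 and 294 bp) and chr2:175167508-175168822 and chr2:175167563-175168810 with palbociclib (1315 and 1248 bp). All 4 summits lay upstream of the outermost ATF2 TSS, by 88, 64, 20 and 74 bp. The 3 start sites further inside ATF2, between 175093254 and 175151082, had no peak in any list. The same peaks also overlapped the promoters of MIR933 and of the non-coding gene ENSG00000229750, and the lists cannot assign the signal among them.

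Mean ATF2 fold enrichment was 12.6 ± 0.761 (SD, n = 2) with DMSO and 52.2 ± 9.21 (SD, n = 2) with palbociclib. On the log2 scale ATF2 fold enrichment was higher with palbociclib by 2.04 (SE 0.19), a 4.11-fold difference of geometric means, and the exact permutation test over libraries gave p = 0.33 (two-sided), the smallest value that 2 against 2 libraries allow. The log2 difference of ATF2 pileups was 2.27 (SE 0.04), or 4.84-fold, and that of widths 1.45 (SE 0.67), or 2.74-fold, with the same exact p of 0.33 each. The differences in fold enrichment and pileup were thus larger than the spread between libraries, in a design that cannot reach a p of 0.05.

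The ATF2 difference was of the usual size for promoters bound in both conditions. Of the 580 genes with a promoter peak in all 4 parental libraries, all 580 had higher fold enrichment with palbociclib, with a median log2 difference of 1.88 (quartiles 1.64 and 2.13), and ATF2 ranked 203 among them by this difference. Divided by the median of these genes in its own library, the ATF2 log2 difference was 0.13 (exact permutation p = 0.667, two-sided). What ATF2 had was a high level in both conditions, at rank 49 of 580 with DMSO and 44 of 580 with palbociclib.

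**Figure D4:**
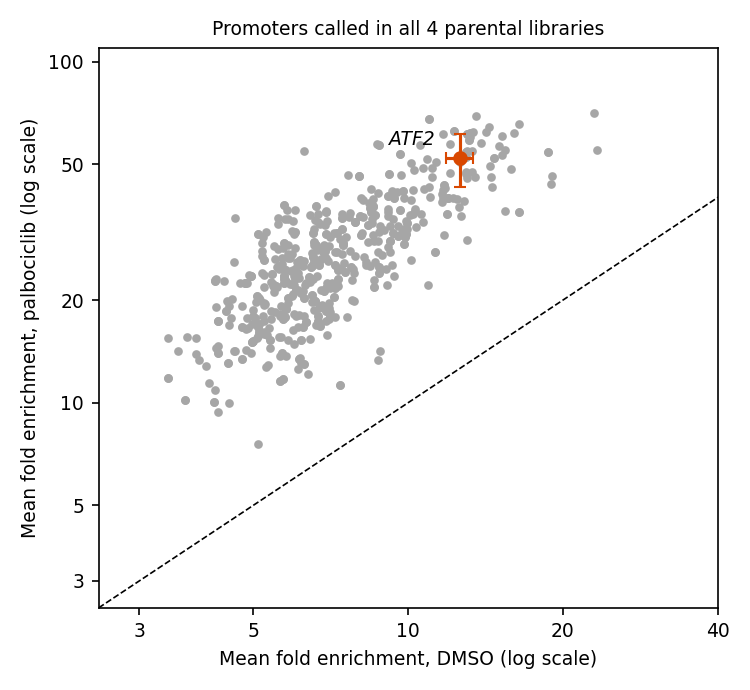
Mean fold enrichment with palbociclib against mean fold enrichment with DMSO (both log scales) for the 580 genes with a promoter peak in all 4 parental libraries, with ATF2 in colour, its bars showing the SD of 2 libraries, and the dashed line marking equal values. Every point lies above the line, and ATF2, at 12.6 and 52.2, lies inside the upper end of the cloud.

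JUNB encodes a JUN protein that often restrains growth where JUN promotes it, and its peak was the next strongest of the set. The gene (ENSG00000171223.6) starts at 12791486 on the plus strand of chromosome 19. Fold enrichment at JUNB was 21.8 and 17.4 in the palbociclib libraries (19.6 ± 3.07, SD, n = 2), over pileups of 32 and 26 fragments, and no peak was called with DMSO. The peaks, chr19:12789754-12790371 and chr19:12789644-12790525, were 618 and 882 bp wide, with summits 1400 and 1412 bp upstream of the only JUNB TSS, and overlapped no promoter of another annotated gene. With promoters narrowed to 500 bp on each side of a TSS, JUNB was no longer counted. Of the 200 genes nearest to JUNB in rank, 100 on each side, with mean fold enrichments from 18.5 to 20.9, 138 were called in at least 1 DMSO library and 62 in neither (31%). JUNB was thus like a minority of promoters of its strength in having no DMSO peak. Among the 200 genes nearest to FOSL2, 188 had none (94%). All 44 genes at or above ATF2 were called in both DMSO libraries.

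JUN, the founding member and the strongest activator of its family, had a weak and narrow promoter peak. The gene (ENSG00000177606.9) starts at 58784048 on the minus strand of chromosome 1. JUN fold enrichment was 5.75 and 6.72 in the palbociclib libraries (6.24 ± 0.686, SD, n = 2), from 9 and 11 fragments. The peaks, chr1:58784447-58784657 and chr1:58784388-58784673, were 211 and 286 bp wide with summits 570 and 484 bp upstream of the TSS. They also lay in promoters of the non-coding genes LINC01135 and ENSG00000290013, which start nearby. Further sites upstream of JUN, at another start of LINC01135, are described with the distal peaks.

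JUND, the JUN gene expressed most steadily across tissues, had the lowest fold enrichment of the 7. The gene (ENSG00000130522.6) starts at 18281622 on the minus strand of chromosome 19. JUND fold enrichment was 4.45 and 4.81 in the palbociclib libraries (4.63 ± 0.252, SD, n = 2). The JUND pileups, 12 and 14 fragments, were above those of JUN, and stood over a local background of 1.92 and 2.12 fragments where JUN had 0.739 and 0.785. The peaks, chr19:18281735-18282089 and chr19:18281651-18282066, were 355 and 416 bp wide with summits 412 and 319 bp upstream of the TSS, and they also lay in the promoter of MIR3188. JUN therefore ranked above JUND by fold enrichment (5007 against 6431 of 6974) and below it by pileup (6386 against 5455).

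Of the FOS genes, FOSL2 (FRA-2), which like FOSL1 lacks the strong activation domain of FOS, had the strongest promoter signal. The gene (ENSG00000075426.12) starts at 28392448 on the plus strand of chromosome 2. The best FOSL2 peak had a fold enrichment of 8.05 and 10.3 (9.19 ± 1.61, SD, n = 2), from 13 and 15 fragments. These best peaks were different sites in each library, so the mean and SD do not describe a single peak. Both palbociclib libraries had 3 FOSL2 promoter peaks each, and ATF3 had 2 in each, so 2 of 10 members had 2 or more in both libraries, beside 2.5% of all genes.

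The broadest FOSL2 peak ended just upstream of the canonical TSS, at 28392858, in both libraries. It covered chr2:28391535-28392810 in palbociclib library 1 (1276 bp, fold enrichment 7.62) and chr2:28391723-28392811 in library 2 (1089 bp, 10.3). The other FOSL2 peaks were narrower and weaker upstream, at 5.93 in library 1 and at 4.49 and 5.06 in library 2, with summits between 1594 and 2041 bp upstream of a TSS. Library 1 alone had a FOSL2 peak downstream of the TSS, chr2:28393454-28393692 (8.05, 239 bp), with its summit at +685 bp in an exon. The broad peak was thus the part of the FOSL2 signal that both libraries shared most closely, while the downstream peak was seen once.

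FOSL1 (FRA-1), the FOS gene most often tied to invasive behaviour of breast cancer cells, had a weak peak on its TSS. The gene (ENSG00000175592.9) starts at 65900573 on the minus strand of chromosome 11. FOSL1 fold enrichment was 5.20 and 4.57 in the palbociclib libraries (4.89 ± 0.444, SD, n = 2), from 11 and 10 fragments. The peaks, chr11:65900471-65900710 and chr11:65900366-65900592, were 240 and 227 bp wide, with summits 71 and 7 bp upstream of the nearest of 3 start sites. FOSL1 and JUND were the 2 of the 7 members that were no longer counted when a fold enrichment of at least 5 was asked for in both libraries.

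FOS and FOSB, both immediate early genes, were at the edge of detection. FOS (ENSG00000170345.10, starting at 75278826 on the plus strand of chromosome 14) had a promoter peak only in palbociclib library 2, at chr14:75276961-75277137, with a fold enrichment of 4.69 from 7 fragments and its summit 1788 bp upstream. FOSB (ENSG00000125740.15, starting at 45467995 on the plus strand of chromosome 19) had one only in the same library, at chr19:45467616-45467926, with a fold enrichment of 4.93 from 8 fragments and its summit 192 bp upstream. The smallest pileup called in either palbociclib list on these chromosomes was 5 fragments. Both calls rest on few fragments, and whether the palbociclib libraries differed at FOS and FOSB was not tested.

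ATF3, a stress-induced factor that acts mostly as a repressor, was bound at its inner promoter. The gene (ENSG00000162772.18) spans 212565334 to 212620777 on the plus strand of chromosome 1. Its best peak had a fold enrichment of 8.27 in palbociclib library 1 and 6.87 in library 2 (7.57 ± 0.991, SD, n = 2). The best ATF3 peaks were different sites in each library, so this mean and SD do not describe a single peak. Library 1 had another ATF3 peak of the same height, 8.27, at chr1:212607989-212609441 (1453 bp, 36 fragments, summit 38 bp upstream of the nearest TSS). The named best peak there was chr1:212606808-212607381 (574 bp, 25 fragments, summit 1722 bp upstream). In library 2 the ATF3 peaks were chr1:212608293-212609074 (782 bp, 28 fragments, summit 201 bp upstream) and chr1:212609262-212609508 (247 bp, fold enrichment 4.32, summit at +487 bp).

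The ATF3 summits thus lay upstream of, or up to 487 bp beyond, the start sites between 212608670 and 212608915, inside an intron of the long transcripts that start at 212565334, and no list had a peak at that outer start. ATF3 combined a middling fold enrichment with a high pileup, at rank 3981 and 2356 of 6974. Its local background, 2.14 and 3.22 fragments at the best peaks, ranked 928.

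BATF3, a small factor without an activation domain that pairs with JUN proteins, was the only member with no peak. The gene (ENSG00000123685.9) starts at 212699840 on the minus strand of chromosome 1, in the same region as ATF3. The nearest Rb summit to a BATF3 TSS was 78.9 and 78.1 kb away in the palbociclib libraries and 91.9 and 91.8 kb away in the DMSO libraries. The nearest IgG2a summit lay 40.7 kb from BATF3.

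FOS and JUN had distal peaks in both palbociclib libraries, 2 of 10 members beside 2.22% of all genes. Upstream of FOS, fold enrichment was 8.63 (chr14:75259113-75259345, 14 fragments) and 11.2 (chr14:75259066-75259482, 19 fragments), with summits 19610 and 19591 bp from the TSS. Downstream of the last FOS start site it was 6.89 (chr14:75294161-75294595) and 4.63 (chr14:75294348-75294569), with summits 14235 and 14216 bp away. The upstream FOS window printed above held 3 CRE cores and 1 CCAAT within 100 bp of the summits of both libraries. The upstream site was stronger in both libraries than the FOS promoter peak of library 2, and both sites lay at promoters of non-coding genes, ENSG00000258820 and ENSG00000289340 upstream and LINC01220 and the pseudogene DPPA5P4 downstream.

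Upstream of JUN, library 1 had peaks at chr1:58814450-58814748 (fold enrichment 5.27) and chr1:58815077-58815457 (7.92), and library 2 had one at chr1:58814534-58814771 (6.46), with summits 30490, 31380 and 30619 bp from the JUN TSS. All 3 lay at a promoter of the non-coding gene ENSG00000272226, and those at 5.27 and 6.46 also at one of LINC01135. When the nearest TSS was sought among genes of all types, no member kept a distal peak in both libraries. Palbociclib library 2 alone had distal peaks 2721 bp upstream of JUNB (5.16) and 10294 bp upstream of JUND (6.97). No DMSO or RB1 KO library had a distal peak at a member. The IgG2a list had one 15069 bp upstream of FOSL2 (5.45) and one 6588 bp upstream of ATF3 (4.27), neither of them at a position with an Rb peak.

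Exact letters of known motifs were sought on either strand up to 100 bp from the summit of each member's best promoter peak, which gave 7 windows in palbociclib library 1 and 9 in library 2, beside all 7290 and 7180 promoter peaks of the same lists. The SP/KLF letters GGGCGG were in 6 of 7 and 5 of 9 member windows, beside 68.1% and 69.3% of all windows. CCAAT was in 2 of 7 (ATF2, JUNB) and 3 of 9 (ATF2, ATF3, JUNB), beside 23.8% and 24.6%. The members thus held both kinds of letters at shares near those of bound promoters in general, and the ATF2 and JUNB windows, the strongest of the set, held both in both libraries.

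Letters for E2F (TTTCCCGC, TTTCGCGC, TTTGCCGC or TTTGGCGC) were in 0 of 7 and 0 of 9 member windows, beside 5.27% and 5.61% of all windows. Within 250 bp they were near no summit of a best promoter peak, beside 12.3% and 12.3% of all windows, and near 1 summit of a weaker one, that of ATF3 in library 2 at +487 bp (letters starting at -240 bp from the summit). At such shares, 0 matches among so few windows cannot be told from the background. Only these exact E2F forms were sought. The shorter TTCCCGC, a part of the first form, stands in the printed ATF2 and JUN sequences, overlapping marked SP/KLF letters. It was not counted, so a wider E2F search could give other counts. No window held the full CRE TGACGTCA (0 and 0, beside 1.001% and 1.04%), the cell cycle homology region, TTTGAA or TTCGAA (0 and 0, beside 4.28% and 4.42%), or the NRF1 site (0 and 0, beside 1.18% and 1.18%). Within 250 bp of the best peaks, the full CRE was near the JUND summits of both libraries and the FOSB summit of library 2, beside 2.73% and 3.02% of all windows. The CRE core TGACG, which every full CRE contains, was in 2 of 7 (ATF2, FOSL1) and 1 of 9 (FOSB), beside 21.6% and 21.4%.

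The rarer letters fell singly. The AP-1 letters TGACTCA were in the FOSL1 window of library 2 and in no other (1.29% and 1.21% of all windows). The variant TGACATCA, known from the JUN promoter, was in the FOS window of library 2 alone (0.302% and 0.334%), the CArG box in the FOSB window of library 2 (0.480% and 0.515%), and the ETS letters CCGGAAGT in the JUN window of library 1 (3.004% and 3.29%). These matches are of letters only, and no binding of the named factors was measured.

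Other genes of the same pathways were counted from lists written from general knowledge. Of 41 other AP-1, ATF, CREB and dimer partner genes, 22 were called at the promoter with palbociclib in both libraries (53.7%), 5 in 1 library and 14 in none. Of all protein-coding genes, 34.9% were called in both palbociclib libraries, 8.82% in 1, and 2.9% in both DMSO libraries. The 22 genes had a median fold enrichment of 8.79, beside 8.36 over all genes so called. NFE2L1, which controls proteasome genes, was called with DMSO in both libraries (6.91 and 6.81) and had 19.97 and 22.5 with palbociclib. ATF7, the closest relative of ATF2, had 23.9 and 12.9 with palbociclib and no DMSO peak. TEF, a clock-controlled factor, had 19.6 and 14.2 with palbociclib and 6.04 in DMSO library 1. Of the ATF2-like pair, ATF2 was thus called in 4 parental libraries and ATF7 in 2.

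Of 22 kinases and phosphatases that act upstream of AP-1, 14 were called in both palbociclib libraries (63.6%, beside 34.9% of all genes). Another 4 were called in 1 library (beside 8.82% of all genes) and 4 in none. The 14 genes had a median fold enrichment of 6.88, beside 8.36 over all genes so called. RPS6KA5 (MSK1), a kinase of CREB, ATF1 and histone H3, was the one called in both DMSO libraries, at 12.1 and 9.81, and reached 70.1 and 65.4 with palbociclib, above ATF2 in each palbociclib library. The gene DGLUCY had the same values in all 4 parental libraries. These peaks thus lay in both promoters, and the lists cannot assign the signal between them. MAP2K7, a kinase of JNK, had 15.2 and 18.0, and MAP3K5 (ASK1) had 9.31 and 9.75. Of 14 immediate early genes and serum response factors, 9 were called in both palbociclib libraries (64.3%, beside 34.9% of all genes), 1 in 1 library and 4 in none. The 9 genes had a median fold enrichment of 10.5, beside 8.36 over all genes so called. None of the 14 was called in both DMSO libraries, beside 2.9% of all genes.

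In that list MRTFA, a coactivator of SRF, had 24.4 and 23.9 with palbociclib and 5.09 in DMSO library 1. EGR1, an immediate early zinc finger factor, had 15.7 and 14.6 and 4.15 in DMSO library 1, in contrast to FOS and FOSB, which were called in a single library. ELK1, the SRF partner that receives the ERK signal, had 11.7 and 12.9. No gene of these lists had a promoter peak in an RB1 KO library, beside 0.01% of all genes. With IgG2a, 1 of the 41 dimer partner genes had one, beside 1.95% of all genes.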

How the data were processed

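Rb CUT&RUN peak lists of 7 ZR-75-1 libraries were analysed. Samples were grouped by their titles. As the study's methods state, the authors used BBDuk for trimming and hg38 as the genome, dropped blacklisted and mitochondrial reads, retained duplicates and called peaks in paired-end mode against a matched IgG control at a q-value of 0.05. Each library has its own deposited list. The submitters' processing notes name Bowtie2 2.3.4.1, MACS2 2.2.7.1, deepTools 3.5.0 and DiffBind. Peak names state that yeast sequence was left out. The control behind the IgG2a list is not given in the sources used here.

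The deposited lists give for each peak its fold enrichment (a ratio, pileup over local background where the peak is highest), the −log10 p-value and −log10 q-value, and a score that is the authors' rounded multiple of −log10 q. The score was not used further. Fold enrichment plus p-value gave the whole-number pileup and the background (largest mismatch in −log10 p 0.00551), and the step recovered the known values when tested on simulated data. Total read numbers are unknown, so no interval was computed.

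Peaks were assigned to promoters and nearest start sites of all transcripts of GENCODE 44 protein-coding genes, with an overlap of at least 1 bp. No peak ended beyond its chromosome in the hg38 sequence. The best promoter peak was the one with the highest fold enrichment. ATF2, the member called in all 4 parental libraries, was tested with an exact permutation test over libraries (two-sided, 6 splits). All 10 members are named. Of the other lists, the genes named are those called in both DMSO libraries and the 3 with the highest mean fold enrichment with palbociclib. The members are set by name alone, but they and the lists were chosen with earlier results of these data known. Alternatives were other thresholds, promoter widths, distances, lists of equal length, a replicate block and leaving out each library. Python 3.11.15, numpy 2.4.6, pandas 2.3.3, scipy 1.17.1 and matplotlib 3.10.9 were used.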

Additional observations from a re-analysis of the deposited data

How the results depend on the processing

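The count of members with a promoter peak in both palbociclib libraries, 7, fell to 1 (ATF2) when each parental list was held to its best 816 peaks, the length of the shortest, where the share of all genes fell from 34.9% to 3.82%. It was 5 at a −log10 q of at least 5 (26.8% of all genes) or a fold enrichment of at least 5 (27.2%), 6 with promoters of 500 bp to each side (34.1%), and 7 to 9 with 1 palbociclib library left out (39.6% and 39.0%). A common cutoff at a −log10 p of 5.33, the highest of the 4 parental lists' own minima, chosen after seeing the data, left 7 (32.9%). The median fold enrichment of the members, 7.57, became 9.19 at either threshold of 5, where 5 members were left. It became 52.2 with lists of equal length, where ATF2 alone was left, and 6.72 to 8.05 with 1 palbociclib library left out. These medians are thus over different members, and the medians over all genes at these settings were not computed. The count of members with a distal peak, 2, became 1 within 20 kb (1.72% of all genes), 1 at a −log10 q of at least 5 (1.45%), 0 with the nearest start site of genes of all types (0.966%), and 2 to 4 with 1 palbociclib library left out (3.62% and 3.48%), beside 2.22% at first. The count with a DMSO peak in both libraries stayed at 1 (ATF2) under every alternative. The share of all genes was 2.9% at first and 2.66% with lists of equal length. It was 1.61% at a −log10 q of at least 5 and 2.04% at a fold enrichment of at least 5. With 1 DMSO library left out it was 5.22% and 4.28%. The ATF2 log2 difference ranged from 1.86 to 2.22 with 1 library left out. With the replicate block it was 2.04 (exact sign-flip permutation p = 0.5, the smallest value that 2 pairs allow). The block leaves the mean difference the same by construction, so it cannot show whether pairing matters. Within 250 bp of the summit the SP/KLF count in palbociclib library 2 rose from 5 to 8 of 9 and the CCAAT count from 3 to 5 of 9, while the shares of all promoter peaks rose from 69.3% to 92.0% and from 24.6% to 42.9%. The cause of these shifts was not tested. The peak lists limit what can be said: a gene without a peak has no value, and 2 libraries per group cannot give a p below 0.33.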

Other observations

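The strongest Rb peaks near several members belonged to neighbouring genes. Within 50 kb of JUND, the promoter of LSM4, an RNA-splicing protein gene, had a fold enrichment of 37.2 and 37.1 in the palbociclib libraries and 6.40 in DMSO library 2, where JUND itself had 4.45 and 4.81 with palbociclib and no DMSO peak. Around FOSL1 there were 8 and 10 further peaks in the palbociclib libraries. Among them the peak between C11orf68 and DRAP1 had 19.3 and 18.5 with palbociclib and 6.82 and 4.76 with DMSO. The highest peaks near CFL1, which encodes the actin-severing protein cofilin, and MUS81, a DNA repair nuclease gene, had 19.4 and 16.8. These highest peaks were different sites in each palbociclib library. FOSL1 had 5.20 and 4.57.

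Near JUNB, a peak at a promoter of HOOK2 lay 2368 and 2428 bp downstream of the JUNB TSS, beyond the end of the gene at 12793315, with a fold enrichment of 13.2 and 15.5, below the JUNB promoter peak at 21.8 and 17.4. Around ATF2 the order was the other way from JUND and FOSL1: the single neighbouring peak in each palbociclib library, at ATP5MC3, had 4.48 and 6.37, where ATF2 had 45.7 and 58.7.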
